A study of Mus musculus with 8 samples.

Results

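Mpo, Elane, Prtn3, Ctsg and Ms4a3 are genes of neutrophil precursors at the stage of the primary granule, a storage compartment filled with peroxidase and proteases. Their transcripts were followed here in RNA of eosinophils sorted from mouse bone marrow (BM) and small intestine (SI). The genes were picked by symbol, and each of the 5 matched 1 row of the 38392 genes in the expression table. Both groups came from wildtype female C57/BL6 mice and held 4 libraries each. BM cells had been flushed from the bone and sorted as CD11b+, Ly6G-, Ly6C-, SiglecF+ and SSChi. SI cells had been freed by warm enzymatic digestion after removal of the epithelium, enriched on anti-CD11b beads and sorted as CD11b+, MHC-II-, SiglecF+ and SSChi. Tissue and handling therefore changed together, and their parts in a difference cannot be told apart. The labels number the samples but do not tie them to columns of the table, so libraries are called by column (BM_1, BM_3, BM_4, BM_5 and SI_6, SI_7, SI_10, SI_11).

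Neutrophils build their granules in sequence. The primary or azurophil granules are filled at the promyelocyte stage, the secondary granules later, and the proteins stay in store long after the early transcripts have gone. Mpo encodes myeloperoxidase, which makes hypochlorous acid from hydrogen peroxide and chloride. Elane, Prtn3 and Ctsg encode neutrophil elastase, proteinase 3 and cathepsin G, serine proteases that are kept active in the granule and that cut bacterial and matrix proteins. Ms4a3 encodes a membrane-spanning protein of granulocyte and monocyte progenitors, and its promoter is used to mark the progeny of these cells. Mature eosinophils carry a related peroxidase, encoded by Epx, and major basic protein, encoded by Prg2, in granules of their own.

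The members lie on 4 chromosomes (GRCm38). Mpo (ENSMUSG00000009350) spans chr11:87793581-87804413 on the + strand and Ctsg (ENSMUSG00000040314) chr14:56099881-56102574 on the - strand. Prtn3 (ENSMUSG00000057729, chr10:79874476-79883174) and Elane (ENSMUSG00000020125, chr10:79886247-79888215) are neighbors on the + strand, 3073 bp apart. Ms4a3 (ENSMUSG00000024681) spans chr19:11629496-11640851 on the - strand. RefSeq promoter windows of build GRCm38.p6, from 250 bases before to 50 bases after the annotated start, were found for all 5. They are printed because the 5 genes moved together, and each is cut off where the first GENCODE exon within the window begins. For Prtn3 the printed bases also lie in an intron of a longer noncoding transcript of the gene. Capitals mark AGGAAGT, a word of the kind bound by PU.1, an ETS factor of myeloid cells.
Mpo, chr11:87793534-87793580, strand +: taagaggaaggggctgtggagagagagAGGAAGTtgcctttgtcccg
Elane, chr10:79886062-79886246, strand +: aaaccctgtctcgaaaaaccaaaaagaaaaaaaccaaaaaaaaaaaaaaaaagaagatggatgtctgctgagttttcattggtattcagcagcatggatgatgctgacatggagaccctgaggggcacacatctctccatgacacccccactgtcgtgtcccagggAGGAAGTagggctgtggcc
Prtn3, chr10:79879417-79879613, strand +: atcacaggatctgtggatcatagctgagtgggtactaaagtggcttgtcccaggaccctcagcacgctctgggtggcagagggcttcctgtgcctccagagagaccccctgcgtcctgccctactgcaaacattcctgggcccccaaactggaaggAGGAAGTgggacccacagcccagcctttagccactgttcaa
Ctsg, chr14:56102575-56102824, strand -: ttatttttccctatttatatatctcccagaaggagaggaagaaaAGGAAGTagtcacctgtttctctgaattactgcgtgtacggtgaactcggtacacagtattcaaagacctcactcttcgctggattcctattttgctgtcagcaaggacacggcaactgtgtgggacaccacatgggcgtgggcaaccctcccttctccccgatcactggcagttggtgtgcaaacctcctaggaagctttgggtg
Ms4a3, chr19:11640852-11641101, strand -: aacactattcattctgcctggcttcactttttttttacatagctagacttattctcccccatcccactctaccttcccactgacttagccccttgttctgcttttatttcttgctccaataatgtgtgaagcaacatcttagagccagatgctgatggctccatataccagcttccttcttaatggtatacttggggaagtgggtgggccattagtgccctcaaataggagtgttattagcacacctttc

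AGGAAGT, searched on both strands, was present in the windows of Mpo, Elane, Prtn3 and Ctsg and not in that of Ms4a3. All 4 matches read along the strand of the gene. They began 20, 19, 41 and 206 bases before the first annotated exon base of the window, which for Prtn3 is not the first of the gene. Of all 32851 RefSeq windows, 9.35% held the word. It was chosen after these sequences had been read, so its frequency among them is a description. The C/EBP word TTNNGNAA was in the window of Ms4a3 alone among the members and in 40.7% of all windows. The MYB word AACNG was in the windows of Mpo, Elane, Prtn3 and Ctsg and in 80.3% of all windows. Its matches in Mpo and Elane lay past the printed bases, inside the annotated exon. The RUNX word TGTGGT was in the window of Ctsg and in 16.8% of all windows. No match of one word overlapped a match of another. These are matches of letters, and no binding was measured.

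The deposited values are counts after a variance stabilizing transformation, on a log2-like scale. Whole reads could be recovered from them and divided by the size factor of the library, and the result is called the normalized count below. The libraries held 11508002 to 21289164 reads in genes. Mpo had normalized counts of 174314 in BM_1, 147932 in BM_3, 150175 in BM_4 and 127019 in BM_5. In SI it had 143 in SI_6, 183 in SI_7, 141 in SI_10 and 191 in SI_11. The lowest BM library thus lay 666-fold above the highest SI library. By its reads Mpo ranked 4 among all genes in every BM library and between 6943 and 8360 in SI.

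The proteases stood in the same relation. Elane had normalized counts of 97745, 84537, 69886 and 66995 in BM_1, BM_3, BM_4 and BM_5, and of 72.0, 76.3, 91.9 and 81.8 in SI_6, SI_7, SI_10 and SI_11. For Prtn3 the BM values were 28837, 24830, 26172 and 20817, and the SI values 40.4, 24.96, 21.9 and 28.4. Ctsg reached 14613, 13038, 13778 and 10969 in BM and 15.3, 12.5, 32.8 and 16.6 in SI, always in the same order of libraries. Every BM library was above every SI library for each protease. The same held for 5354 of the 38392 genes of the table. Ms4a3 had the fewest reads of the 5, with normalized counts of 6421, 5410, 5954 and 5273 in BM and 14.2, 6.93, 24.1 and 19.0 in SI, and its lowest BM library lay 219-fold above its highest SI library.

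**Figure D1:**
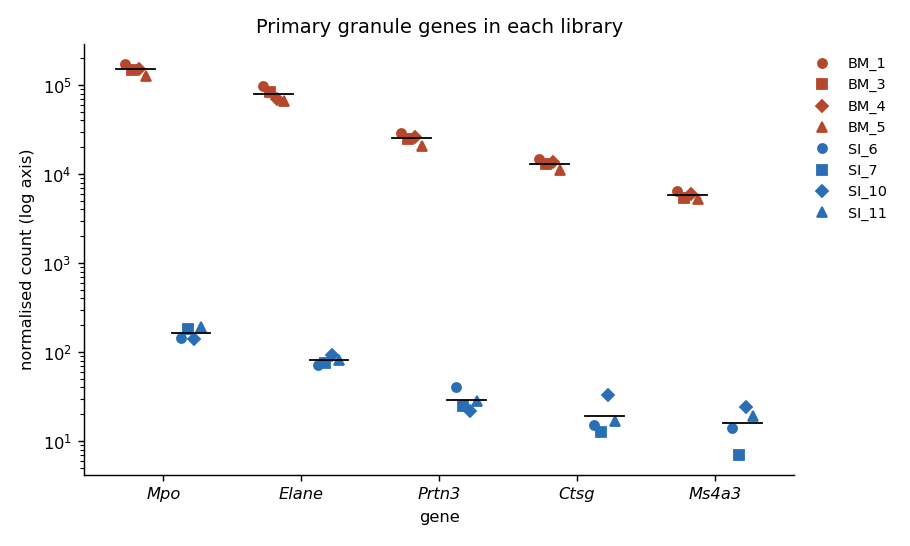
Normalized counts (log axis) of Mpo, Elane, Prtn3, Ctsg and Ms4a3 in the 4 BM libraries (red) and the 4 SI libraries (blue), 1 symbol a library, with the mean as a black line. The 2 tissues do not overlap for any gene, and the narrowest gap, that of Ms4a3, is 219-fold.

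The SI values rest on few reads. Mpo had 131, 132, 129 and 161 reads in SI_6, SI_7, SI_10 and SI_11, and Elane had 66, 55, 84 and 69. Prtn3 had 37, 18, 20 and 24 reads, Ctsg had 14, 9, 30 and 14, and Ms4a3 had 13, 5, 22 and 16. None of the 5 was at 0 in any SI library, and the smallest value, the 5 Ms4a3 reads of SI_7, had an exact Poisson 95% interval of 1.62 to 11.7 reads. These intervals cover counting error only. In SI the coefficient of variation over libraries was 15.9% for Mpo and 10.7% for Elane, where counting alone gives about 8.55% and 12.1%. For Ctsg and Ms4a3 it was 47.6% and 45.4%, against 24.5% and 26.8% from counting.

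The comparison of SI with BM asked how the transcriptome of eosinophils differs between the tissue where they form and the tissue where they settle. It was tested with limma on the deposited values over all 38392 genes, and a gene is called where the Benjamini-Hochberg adjusted p is under 0.05. All 5 members fell in SI, where 12.9% of all genes were called lower and 22.0% higher and the median difference of all genes was 0.37. Of all calls 63.2% were higher in SI, against 29.6% with each library centered on its median, a split that left all 5 members lower. Elane fell by 9.88 ± 0.20 (SE) on the log2 scale (limma adjusted p = 1.01e-07) and Mpo fell by 9.80 ± 0.20 (limma adjusted p = 1.01e-07). On the deposited scale these were the largest and the second largest fall of the table. Prtn3 fell by 9.61 ± 0.23 (limma adjusted p = 1.46e-07), Ctsg fell by 9.23 ± 0.28 (3.02e-07) and Ms4a3 fell by 8.28 ± 0.31 (8.06e-07), at ranks 4, 8 and 14. The order of the falls depended on the scaling. With quantile normalization the difference was -10.39 for Prtn3, -10.14 for Ctsg and -9.957 for Elane, and that of Mpo lay between Ctsg and Elane.

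In normalized counts, Mpo went from 149860 ± 19352 (SD, n = 4) in BM to 164.5 ± 26.1 in SI, and the SI mean was 0.110% of the BM mean. Elane went from 79791 ± 14221 to 80.5 ± 8.58 (0.101%), and Prtn3 from 25164 ± 3342 to 28.9 ± 8.10 (0.115%). Ctsg went from 13100 ± 1559 to 19.3 ± 9.18 (0.147%). Ms4a3 kept the largest share, with 5764 ± 528 in BM and 16.0 ± 7.29 in SI (0.278%). In bulk RNA of sorted cells, fewer cells of a type and less RNA per cell cannot be told apart. Whether the few SI reads of the members came from the sorted SI cells or from elsewhere was not tested. The members were still called, all 5 and all lower, when BM_5, the BM library with the most genes detected, and SI_6, the SI library with the most epithelial transcripts, were left out together.

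Together the 5 genes took 2.31% of all reads in BM_1, 1.99% in BM_3, 2.07% in BM_4 and 1.82% in BM_5. In SI they took 0.00183% in SI_6, 0.00190% in SI_7, 0.00205% in SI_10 and 0.00196% in SI_11. The SI share varied little between libraries, at 0.00194% ± 9.08e-05 (SD, n = 4) on 219 to 285 reads a library. Mpo made up 54.8% ± 1.23 of the reads of the 5 genes in BM and 53.1% ± 6.69 in SI. Elane made up 29.1% ± 2.0 and 26.0% ± 2.33, and Prtn3 9.20% ± 0.426 and 9.47% ± 3.20. Ms4a3 took a larger part in SI, 5.15% ± 2.24 against 2.12% ± 0.164 in BM, though SI_7 was at 2.28%. Ctsg made up 4.80% ± 0.271 in BM and 6.23% ± 2.91 in SI. Its higher SI mean rests on SI_10 with 10.5%, while SI_6, SI_7 and SI_11 had 5.36%, 4.11% and 4.93%.

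Levels of different genes can be compared only per length, here as normalized counts per kb of merged GENCODE M21 exons. On that scale Elane, not Mpo, was the most abundant member in BM, with 81088 ± 14452 against 43768 ± 5652 (SD, n = 4). Elane exceeded Mpo in all 4 BM libraries, by 1.62- to 1.99-fold. Prtn3 (14529 ± 1930) and Ctsg (12681 ± 1510) followed within each other's spread over libraries, yet Prtn3 was above Ctsg by 1.13- to 1.18-fold within every BM library. Ms4a3 was last with 3060 ± 280.0 per kb. In SI the levels per kb were 81.8 ± 8.72 for Elane, 48.0 ± 7.63 for Mpo, 18.7 ± 8.89 for Ctsg, 16.7 ± 4.68 for Prtn3 and 8.51 ± 3.87 for Ms4a3. SI_6, SI_7 and SI_11 kept the BM order, while in SI_10 Ctsg and Ms4a3 were above Prtn3. The ranges of the lower 3 over SI libraries overlapped, at 12.1 to 31.8 for Ctsg, 12.6 to 23.3 for Prtn3 and 3.68 to 12.8 for Ms4a3.

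The length behind these values matters for 3 members. With the longest coding transcript in place of all exons, a choice made after seeing the data, the BM level per kb was 54495 for Mpo, 24550 for Prtn3 and 5707 for Ms4a3, and the BM order stayed the same in every library. In SI_11 Ms4a3 was then above Ctsg. Elane exceeded Mpo by 1.49 ± 0.134-fold in BM, and Prtn3 exceeded Ctsg by 1.86- to 1.93-fold, beyond the spread of either. Over its whole length the antisense gene Gm11505 overlaps Mpo, by 5361 bp, and the start of Plppr3, on the other strand, overlaps Prtn3 by 159 bp. The strand setting of the counting is not given in the sources used here. Gm11505 had 16.1 ± 3.95 normalized counts in BM and 0.274 ± 0.547 in SI, and Plppr3 had 973.6 ± 5.49 and 227.5 ± 67.2. Of the stretches of 75 bases in the members' transcripts, 6.94% in Mpo and 5.06% in Prtn3 also occur in the transcripts of these overlapping genes, and none in Elane, Ctsg or Ms4a3 occur in another gene.

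Ratios between members within a library show whether they fell alike. The 10 pairs were compared between tissues by an exact two-sided permutation test over 70 assignments of libraries, where the smallest possible p is 0.0286, and adjusted over the 10. No pair passed 0.05 after adjustment, and 5 pairs had the smallest p, at which the adjusted p is 0.0571. Ms4a3 was part of 4 of these. With so few pairs at the smallest p none could pass, however large its difference. The test could therefore not call the 4 pairs of a single member on their own, and the lack of calls decides nothing. The log2 ratio of Mpo to Ms4a3 was 4.70 ± 0.09 (SD, n = 4) in BM and 3.18 ± 0.74 in SI, a difference of -1.52. Elane to Ms4a3 went from 3.78 ± 0.20 to 2.18 ± 0.52 and differed by -1.59, and Prtn3 to Ms4a3 differed by -1.33 and Ctsg to Ms4a3 by -0.94. Elane to Ctsg, the other of the 5, went from 2.60 ± 0.18 to 1.95 ± 0.40 and differed by -0.65. For these 5 pairs the 4 SI libraries lay below the 4 BM libraries.

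The 5 other pairs overlapped between tissues. The log2 ratio of Mpo to Elane was 0.92 ± 0.13 in BM and 0.99 ± 0.29 in SI (exact permutation p = 0.657, adjusted 0.714). Mpo to Prtn3 differed by -0.19 (exact permutation p = 0.714) and Elane to Prtn3 by -0.26 (exact permutation p = 0.343, adjusted 0.490). Mpo to Ctsg differed by -0.58 (exact permutation p = 0.114, adjusted 0.190) and Prtn3 to Ctsg by -0.39 (exact permutation p = 0.400, adjusted 0.500). Without SI_6, and likewise without SI_7, 6 of the 10 pairs passed, at an adjusted exact permutation p of 0.0476. There too a pass depended on how many pairs stood at the smallest p together. The values are on the deposited scale, which compresses low counts, and with 1 added to normalized counts the difference of Mpo to Ms4a3 was -1.31 and no pair passed.

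**Figure D2:**
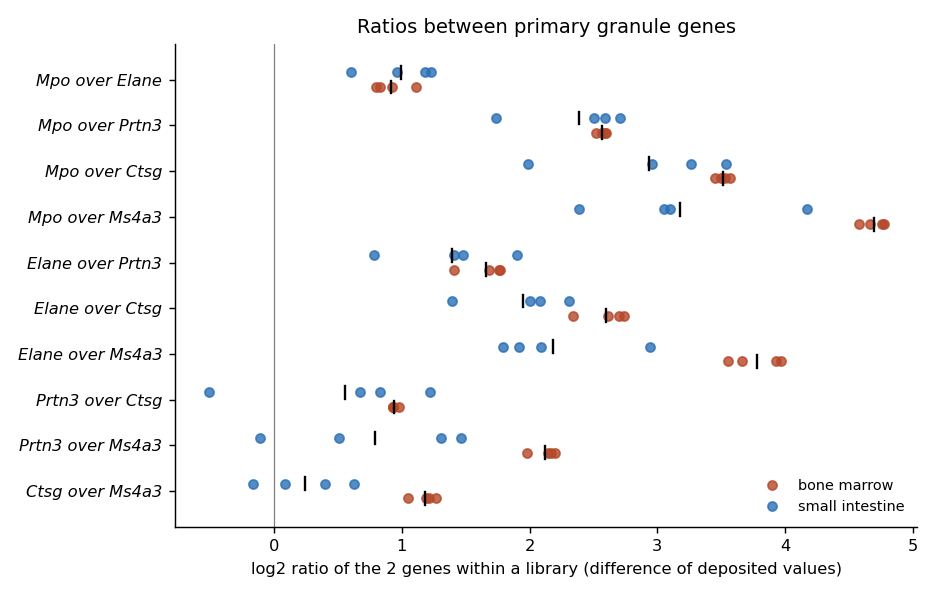
Log2 ratio of each pair of members within a library, as the difference of deposited values, for 4 BM libraries (red) and 4 SI libraries (blue), with the mean as a black line. The ratios over Ms4a3 are lower in every SI library than in every BM library, while the ratio of Mpo to Elane has means of 0.92 and 0.99.

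Within BM the 5 members moved together from library to library. Each was highest in BM_1 and each was lowest in BM_5. Other genes had these extremes too, among them Siglecf, Srgn and Spi1. Not all did: Fcnb was highest in BM_3 and Prg2 in BM_5. The highest library exceeded the lowest by 1.37-fold for Mpo, 1.46-fold for Elane, 1.39-fold for Prtn3, 1.33-fold for Ctsg and 1.22-fold for Ms4a3. The median SD of the 5 over BM libraries was 0.19 on the log2 scale, against 0.23 over 16215 genes averaging 10 or more reads. That of the 5 was 0.05 after the mean of the 5 in each library was subtracted. The ratio of Prtn3 to Ctsg was the steadiest, at 0.94 ± 0.03 in BM. Counting error was small beside this spread, at 0.234% for Mpo and 1.197% for Ms4a3. In SI no such common shift was seen: the median SD was 0.34 before the subtraction and 0.36 after it. There 3 of the 5 were highest in SI_10, where Mpo and Prtn3 were lowest. In SI the coefficient of variation from counting alone was 8.55% for Mpo to 26.8% for Ms4a3. The whole coefficient of variation over BM libraries was 9.15% for Ms4a3 to 17.8% for Elane. A common shift of the BM size could therefore have been missed in SI.

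**Figure D3:**
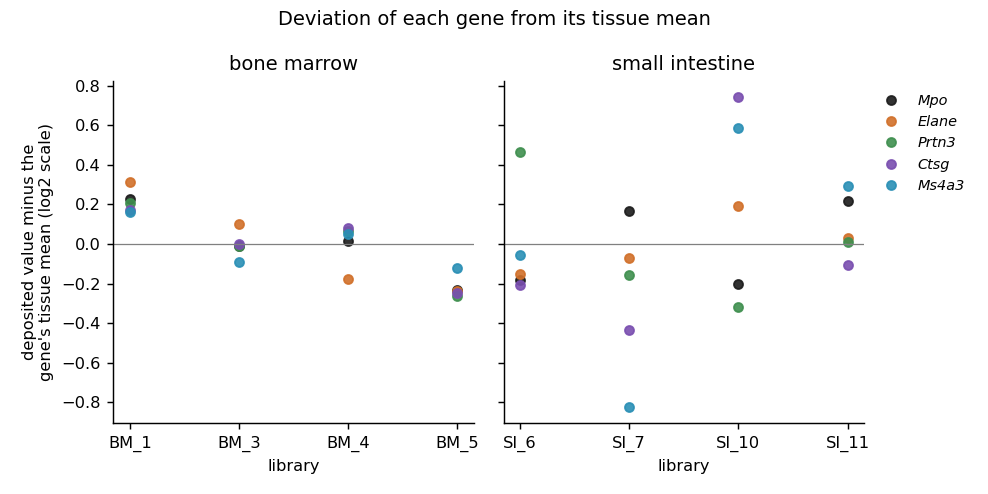
Deposited value of each member minus its mean over the 4 libraries of the tissue (log2 scale), by library, for BM (left) and SI (right). In BM all 5 genes are highest in BM_1 and lowest in BM_5, and in SI they scatter, with Ctsg and Ms4a3 highest in SI_10.

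The genes whose profile over the 8 libraries lay nearest to the mean profile of the members were Chil3, Ngp, Camp, Fcnb and Lcn2. Nearness was the root mean square distance between profiles centered on their own means, among 13255 genes with a symbol and at least 10 reads on average. The distances were 0.26, 0.32, 0.34, 0.40 and 0.41 on the log2 scale, and those of the members themselves were 0.24 for Ctsg, 0.28 for Elane, 0.29 for Prtn3, 0.31 for Mpo and 0.60 for Ms4a3. The profiles share the same 8 libraries, and the gap between the tissues is the main feature of each. Chil3, Ngp, Camp and Lcn2 are transcripts of the later granules of neutrophils. Fcnb encodes a ficolin and is grouped here with the primary granule proteins.

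The 9 secondary and tertiary granule markers took 0.977% to 1.40% of reads in BM and were highest in BM_3, whereas the 5 members were highest in BM_1. Fcnb, grouped here with the primary granule proteins, was highest in BM_3 too. The share of the 5 members over that of these markers was 2.37 in BM_1, 1.415 in BM_3, 1.67 in BM_4 and 1.585 in BM_5. In SI it was 0.0337 to 0.0381, and there Mmp9, a gelatinase gene of tertiary granules, had 7336 ± 1028 normalized counts against 50.7 ± 24.5 in BM. Of the 9 markers 7 fell and Mmp9 and Mmp8 rose. The call of Mmp8 was lost with each library centered on its median and with quantile normalization. Ngp fell by 9.52 ± 0.21 and Ltf, the lactoferrin gene, by 7.31 ± 0.31 (limma adjusted p = 1.12e-07 and 1.39e-06).

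Other primary granule proteins of neutrophils were taken from a list of 4. Fcnb fell by 9.26 ± 0.30, from 14655 ± 1835 to 21.4 ± 8.91 normalized counts. Prss57, which encodes neutrophil serine protease 4, fell by 7.57 ± 0.34, from 3246 ± 555 to 14.6 ± 6.89. Lyz2, the lysozyme gene that macrophages also use, fell by 3.85 ± 0.23, from 36505 ± 5668 to 2542 ± 527. Bpi, which encodes a protein that binds endotoxin, was 3.29 ± 1.60 in BM and 15.5 ± 7.95 in SI (limma adjusted p = 0.0152). That call was lost with median centering, with quantile normalization and without SI_10. Of 10 lysosomal genes whose products are also stored in primary granules, 6 fell, 2 rose and 2 did not pass, with a median difference of -0.80. Arsb fell most, by 3.12 ± 0.18, and Man2b1 was 4257 ± 228 in BM and 16549 ± 2502 in SI. With each library centered on its median, neither of the 2 higher calls was kept.

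The genes that activate, pack and fold these proteins divided. Of 8, 4 fell and 4 rose, and the 4 rises were not called with each library centered on its median, where the median of all genes shifts from 0.37 to -0.53. Ctsc, whose product dipeptidyl peptidase 1 cuts the proteases into their active form, had 293 ± 36.2 normalized counts in BM and 533 ± 115 in SI. Its difference of 0.84 ± 0.22 (limma adjusted p = 0.0171) turned to -0.06 with median centering. Srgn, the proteoglycan core on which granule proteins are packed, had 11425 ± 1420 in BM and 41906 ± 8842 in SI, a difference of 1.86 ± 0.21. Calr, a chaperone of the endoplasmic reticulum that binds the precursor of myeloperoxidase, fell by 3.02 ± 0.26. Myeloperoxidase carries haem, and of the 8 haem synthesis genes 5 fell and 3 did not pass. Alas1, the rate-limiting enzyme outside red cells, fell by 1.24 ± 0.20.

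Inhibitors of the neutrophil proteases numbered 13, of which 2 fell, 3 rose and 8 did not pass, and 1 of the rises was kept with median centering. Serpinb1a, which inhibits elastase, proteinase 3 and cathepsin G inside the cell, fell by 4.51 ± 0.40, from 8578 ± 765 to 429 ± 287 normalized counts. Slpi, a secreted inhibitor of elastase, was 374 ± 35.8 in BM and 390 ± 141 in SI. Serpina1e, of the secreted antitrypsins, had 0 reads in all 4 BM libraries and 5.76 ± 2.84 normalized counts in SI (limma adjusted p = 0.000175). It was the rise that was kept. Its near-identical copies Serpina1a to Serpina1d could share its reads.

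Of 10 transcription factors of the promyelocyte stage, 6 fell, 3 rose and 1, Irf8, did not pass. Gfi1, a repressor that neutrophil precursors need, fell by 5.51 ± 0.20, from 1744 ± 161 to 34.9 ± 7.01 normalized counts. Cebpa, the factor of commitment to granulocytes, fell by 3.47 ± 0.36 and Cebpe, which drives the later granules, by 1.71 ± 0.19. Cebpb rose by 4.47 ± 0.33, from 29.5 ± 9.62 to 737 ± 237. Spi1, the gene of PU.1, was added after its values were seen and had 3157 ± 325 in BM and 6444 ± 916 in SI. Its difference of 1.02 ± 0.19 was 0.12 and not called with median centering, under which Cebpb alone of the 3 rises was kept.

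The families of the members did not follow them as a whole. Epx and Lpo belong to the haem peroxidase family with Mpo. Epx fell by 3.94 ± 0.29, from 350 ± 40.2 to 20.6 ± 9.06 normalized counts, and Lpo, lactoperoxidase, fell by 4.19 ± 0.77, from 181 ± 24.7 to 12.5 ± 14.1. Of 16 relatives of the proteases, 3 fell, 3 rose and 10 did not pass, and 1 of the rises was kept with median centering. Prss57 was 1 of the 3 falls, Mcpt8, a protease gene of basophils, fell by 4.86 ± 0.56, and Cfd, the complement factor D gene, fell by 1.72 ± 0.47, a call lost when any 1 of 6 libraries was left out. The highest riser, Mcpt1, stayed at 8.77 ± 5.50 in SI against 0.232 ± 0.465 in BM.

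The Ms4a family did not fall with Ms4a3. Of its 17 other genes 1 fell, 8 rose and 8 did not pass, against 5 lower and 7 higher with median centering and 6 lower and 6 higher with quantile normalization. Ms4a2, the beta chain of the IgE receptor, fell by 3.79 ± 0.30, from 95.8 ± 16.3 to 4.24 ± 2.59 normalized counts. Ms4a15 had 80.0 ± 26.1 in SI and 0.465 ± 0.930 in BM. The call of Ms4a14, another riser, was lost under 8 alternatives. Ms4a14 and 2 more risers, Ms4a8a and Ms4a18, were named after their values were seen, and all were highest in SI_6, the library with the most epithelial transcripts, and the part of epithelial RNA was not tested.

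**Figure D4:**
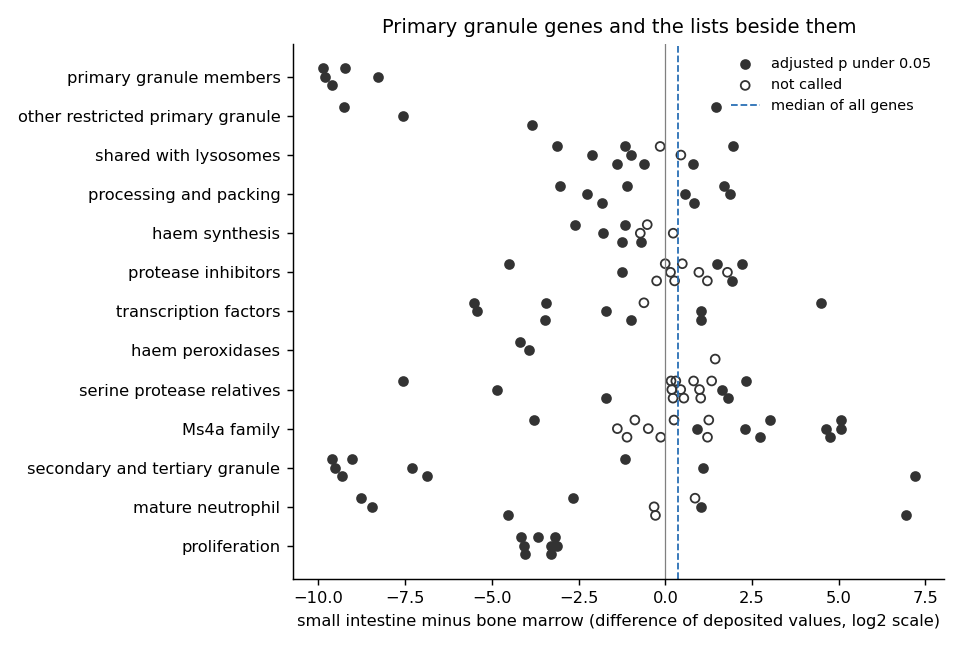
Difference of deposited values, SI minus BM (log2 scale), for the 5 members and the genes of 12 lists beside them, members left out. Filled points have a limma adjusted p under 0.05, open points do not, and the dashed line is the median of all genes, 0.37. The members lie between -9.88 and -8.28.

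Neighbors along the chromosome were looked at because Prtn3 and Elane are adjacent and other members lie among relatives. The 4 protein-coding genes on each side were taken, 32 genes without the members, a choice made after results were known. Of these, 12 fell and 7 rose, with a median difference of -0.36 and a range of -4.86 to 5.44. Over all genes 12.9% were called lower and 22.0% higher, with a median difference of 0.37. The neighbors were not counted again under other scalings. At Mpo the nearest gene, Lpo, is 2015 bp away, and Epx is 59587 bp away. Beside Elane, Cfd is 2638 bp away. Ptbp1, a splicing regulator nearby, fell by 2.01 ± 0.21, and Misp, an actin-binding protein gene of epithelia, rose by 5.44 ± 0.68. Mcpt8 is 14608 bp from Ctsg, on the other side of which Gzme did not pass. Ms4a2 is 5777 bp from Ms4a3, and 26609 bp away on the other side Oosp1, an oocyte gene, fell by 3.74 ± 0.48. No neighbor other than Prtn3 and Elane fell by as much as a member.

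**Figure D5:**
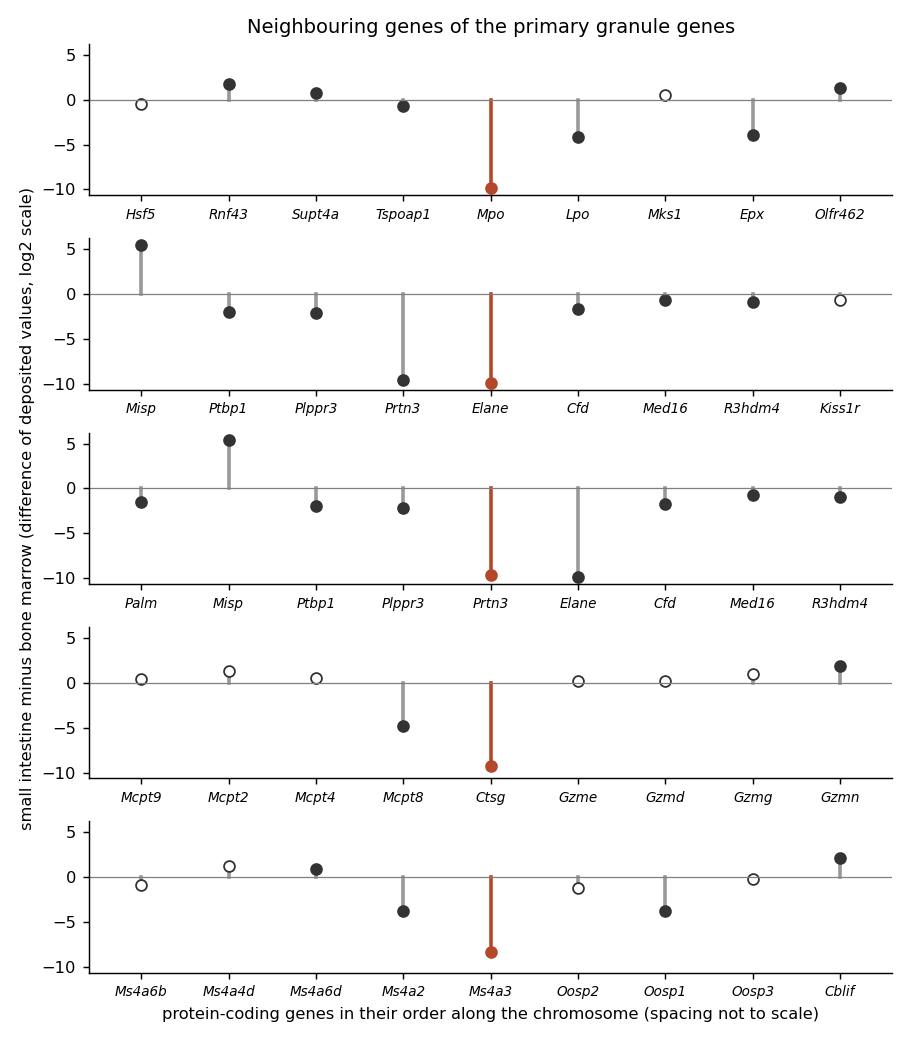
Difference of deposited values, SI minus BM (log2 scale), of each member (red) and its 4 protein-coding neighbors on each side, in their order along the chromosome, with spacing not to scale. Filled points have a limma adjusted p under 0.05. The neighbors other than Prtn3 and Elane lie between -4.86 and 5.44.

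Markers of the labeled cell type and of others were read in the same libraries. In BM, Siglecf, whose product was part of the sort, had 580 ± 66.0 normalized counts and Ccr3, the eotaxin receptor gene, 70.9 ± 25.7, against 3076 ± 516 and 16351 ± 2623 in SI. Per kb, Mpo in BM was 20.9 ± 5.35 times Prg2, from 13.3 to 25.9 over libraries, and in SI it was 0.283 ± 0.0552 times Prg2. Prg2 was no steady reference, for it fell by 3.62 ± 0.26, from 1831 ± 396 to 147 ± 40.7 normalized counts. The 10 eosinophil markers together took 0.0209% to 0.0358% of reads in BM and 0.216% to 0.269% in SI. Of the 10, 5 fell, Prg2 and Epx among them, and 5 rose, Siglecf and Ccr3 among them. None of the 10 was at 0 in all libraries of a tissue.

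Some markers of later neutrophils moved with the members. Of 9 mature neutrophil markers 4 fell, 2 rose and 3 did not pass, and they took 0.910% to 1.56% of reads in BM and 0.256% to 0.339% in SI. S100a9 fell by 8.46 ± 0.25 and S100a8 by 8.77 ± 0.50. Ly6g, whose product the BM sort excluded, was 92.1 ± 31.9 in BM and 1.71 ± 1.87 in SI. Retnlg rose by 6.94 ± 0.42, from 421 ± 249 normalized counts in BM to 45675 ± 7373 in SI. It made up most of the SI share of the list, where S100a9 had 276.5 ± 73.9. Proliferation genes fell in 8 of 8, and Mki67 fell by 3.11 ± 0.28. Their share was 0.370% to 0.428% of reads in BM and 0.0212% to 0.0569% in SI. Of 8 stem and progenitor markers 2 fell, 4 rose and 2 did not pass. The part of any of these cells in the members' levels was not tested.

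Of 7 monocyte markers 2 fell, 2 rose and 3 did not pass, while 5 were lower with median centering and 4 with quantile normalization. They stood at 0.0617% to 0.0801% of reads in BM and 0.00922% to 0.0122% in SI. Ly6c2, which encodes Ly6C, a surface protein that the BM sort excluded, had 8268 ± 1229 normalized counts in BM and 16.7 ± 3.79 in SI. Erythroid markers fell in 7 of 8 and mast cell and basophil markers in 4 of 6. B cell markers fell in 3 of 6, against 5 with median centering and 5 with quantile normalization. Each of these 3 lists took at most 0.00987% of reads in BM. Macrophage markers rose in 5 of 6, 2 of them with median centering, and intestinal epithelial markers in 5 of 5, the latter at 0.0116% to 0.0762% of SI reads and highest in SI_6. The members' share of reads in SI_6, 0.00183%, was the lowest of the SI libraries.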

How the data were processed

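RNA of 8 libraries, 4 from BM and 4 from SI, was read from single ends after cDNA amplification. The authors aligned the reads to GRCm38 (Ensembl annotation), counted them per gene with nf-core/rnaseq and deposited log2-like values from the variance stabilizing transformation of DESeq2, run in R 4.0.3. For the aligner, the strand setting and multi-mapping reads, settings were not given in the sources used here. The table bottomed out at 0.92971568, from which the transformation was inverted. After multiplication by size factors of 0.721 to 1.53, 100% of values were whole reads within 0.05. All 38392 identifiers were found in GENCODE M21, which gave coordinates and lengths.

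limma 3.58.1 (R 4.3.3) was fitted to the deposited values of all genes, SI minus BM, with no covariate, no filter on low values and Benjamini-Hochberg adjustment. Pair ratios were tested by exact permutation, and scripts were tested on simulated data, where some unchanged genes under 10 reads were called. Counts over all genes and calls that rest on few reads are less certain for that. Alternatives were median centering, quantile normalization, a trended prior, a minimum mean value of 5, log2(normalized count + 1), voom on recovered reads scaled by a trimmed mean, and leaving out each library. The text names the members, up to 4 genes of each list (the highest mean, the largest called rise and fall, and genes tied to a member by role), the most abundant or defining markers and the 5 nearest profiles; some list genes are not reported here by name. Members and lists were chosen with earlier results of these data known. Per the study, 4 mice were sampled for each tissue.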

Additional observations from a re-analysis of the deposited data

Results flagged for a closer look

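For the members, their pair ratios, their summed share and the other genes named, 122 sets of 4 libraries were examined for a single library far from the other 3, and 4 were found, where chance gives about 6.1 (1 in 20). The log2 ratio of Prtn3 to Ctsg in BM was highest in BM_1, and its gap to the nearest library was 0.91 of the range. S100a8 in BM was lowest in BM_4 (0.832). Mcpt1, with 1 read, and Ms4a15, with 2 reads, had reads in BM_5 alone of the BM libraries, so the gap was the whole range. No single member was set apart in any library.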

How the results depend on the processing

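All 5 members were called lower in SI under all 15 alternatives, and over the 14 that changed 1 choice their differences ran from -10.78 to -8.01. Leaving out 1 library gave -9.88 to -9.73 for Mpo, -9.95 to -9.77 for Elane, -9.77 to -9.51 for Prtn3, -9.47 to -9.08 for Ctsg and -8.48 to -8.01 for Ms4a3. The number of genes called over the whole table ran from 9164 to 14978 around 13402, and that of list genes from 96 to 125 around 119. Of all calls 63.2% were higher in SI, against 45.9% with quantile normalization and 46.8% with a minimum mean value. The number of member pairs called was 0 to 6 when 1 library was left out, 6 without SI_6 or without SI_7. Over these sets Mpo to Prtn3 differed by -0.30 to 0.028 and Mpo to Elane by -0.0043 to 0.20, so both changed sign. Ctsc turned to -0.065 with median centering. Slpi, near 0 in the full set, was -0.90 with median centering, 0.078 with quantile normalization and -0.22 to 0.14 when 1 library was left out. The cause of these turns was not tested. No paired analysis was possible because the BM and SI samples share no number in the labels and the columns are not tied to samples. The SI values of Ctsg and Ms4a3 rest on 5 to 30 reads a library, and counting accounts for part of their spread.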
